A study of Caenorhabditis elegans with 4 samples.

Results

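For SEA-2, a zinc finger protein tagged with GFP, 361 listed peaks lay inside the protein-coding exons of Caenorhabditis elegans autosomes, outside promoters. Chromatin immunoprecipitation with sequencing (ChIP-seq) recovers the DNA attached to a protein. A peak is a stretch listed as holding more of that DNA than a control. The 361 were all peaks of the pooled list with a summit, the highest point of the peak, in a coding sequence on an autosome. That list, called from all replicates, includes background regions, so a peak in it need not be a bound site. Summits in an annotated 5' UTR were left out, as were those between 1000 bp upstream and 200 bp downstream of an annotated transcript start (a promoter window, drawn for all genes except pseudogenes and piRNA genes). They are 361 of the 2980 pooled peaks on autosomes, and the pooled list holds another 932 peaks on X.

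The worms were whole L3 larvae, mixed in sex, of strain OP193, which carries the unc-119(ed3) mutation and the integrated transgene wgIs193. The transgene holds sea-2 with a C-terminal TY1, EGFP and FLAG tag together with unc-119, which rescues the mutation. The labels give 4 biological replicates of this 1 group, with no untagged strain and no second condition. Replicates 1 and 2 have a size range of 150 to 350 bp and came from the CGC strain collection, whereas replicates 3 and 4 are labelled as sonicated with a microtip and came from the laboratory itself. Source and fragmentation therefore cannot be told apart. All tissues of the larva are mixed, so a weak peak and a peak present in few cells cannot be told apart either.

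SEA-2 is known in C. elegans as an autosomal signal element: its dose is weighed against that of X-linked elements when the embryo sets its sex, and it also acts in the timing of larval development. Coding exons are the parts of a gene that specify amino acids. In this organism they are richer in G and C than the introns around them.

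All lists used are the peak lists the authors deposited on the build ce11. The replicate lists hold 23684 peaks for replicate 1 and 30000 peaks for each of the others. The replicate lists and the pooled list include background regions, since they were made as input for a reproducibility filter. The authors' final list holds 312 peaks, which are the 312 strongest of the pooled list. Read depth is not given, so no value below could be set against the depth of its library. Replicate 2 had the highest share of coding exon peaks in its own list and replicate 1 held the most of the 361 members, so the main replicate comparisons are also given without each of them.

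The sequences at the summits of 8 of the 15 strongest members are given first, as examples of the coding DNA under these peaks. They are the 30 bases around the summit, on the coding strand of the host gene, from the RefSeq WBcel235 assembly (ce11). The capital letter is the base at the summit.
malt-1, chrII:6948242-6948271, minus strand: gccaggaagacaccGatatgggagaaaatg
rer-1, chrII:8811746-8811775, plus strand: tgaatctcttcttgCtctttttaactccat
ceh-83, chrII:1734301-1734330, minus strand: gagcttctgaagacTgatagtaatccgagc
vps-16, chrIII:6433701-6433730, plus strand: catattttcttctcTgggcgagaaaatttc
srw-112, chrV:3005497-3005526, minus strand: ttaaagcgggattcAttgagaacgaggagg
sdf-9, chrV:20799074-20799103, plus strand: tggcagatggttctTgagcaaagatctccg
gadr-3, chrIII:6285130-6285159, minus strand: ttccaacaactttgCgaaagcattccaaat
cec-1, chrIII:8427003-8427032, plus strand: tctgcttcaactccTgctcgtggagctaaa

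A second set holds the word GAGAGA, or TCTCTC on the other strand, which earlier results of these data found to be frequent at the strongest SEA-2 peaks. These 4 members carry it within 8 bp of the summit, and the capitals mark it.
lys-2, chrV:10280678-10280707, minus strand: tcaacaatatggTCTCTCtgttggaattta
srw-139, chrV:2984970-2984999, minus strand: agtggaatcattGAGAGAttattcacgacg
jmjd-1.2, chrIV:4663211-4663240, plus strand: taaactcctccaGAGAGAagaatatcttcc
B0252.3, chrII:6903946-6903975, minus strand: tattattgctggTCTCTCatttttgggaat

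The coding exon peaks were among the weaker peaks of the list. Their signal values, a score the authors deposited with no stated scale, ran from 30.2 to 55.9 with a median of 33.1. The median was 34.0 for the 448 intron peaks outside promoters and 36.1 for the 1578 promoter peaks, whose highest value was 223.0. The −log10 of the authors' q-value had a median of 0.0839 among coding exon peaks and a maximum of 1.49. The maximum was in the gene malt-1, and the next strongest member, in Y73E7A.3, had 0.941. Low values mean weak evidence of enrichment over the control, so most members are weakly supported by the list itself. No coding exon peak was among the 312 final peaks, of which 229 lay on autosomes. Taking 3 counts as the limit that a count of 0 allows, the share could be up to 1.31% of the autosomal final peaks, and the upper end of the 95% Clopper-Pearson interval, which is wider, is 1.6%.

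Coding exon peaks became more frequent down the ranks of the pooled list. They made up 14 of 519 autosomal peaks at ranks 313 to 1000, or 2.7% (95% Clopper-Pearson interval 1.48 to 4.48). At ranks 1001 to 2000 they made up 93 of 754, or 12.3% (10.1 to 14.9). At ranks 2001 to 3000 they made up 134 of 761, or 17.6% (15 to 20.5), and from rank 3001 to the end they made up 120 of 717, or 16.7% (14.1 to 19.7). Coding sequence that meets the rule covers 15.1 Mb, or 18.3% of autosomal length, and the intervals of the last 2 rank groups include that share. The promoter share moved the other way, from 71.6% at ranks 1 to 312 to 42.5% from rank 3001 on. These intervals cover counting error only.

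**Figure D1:**
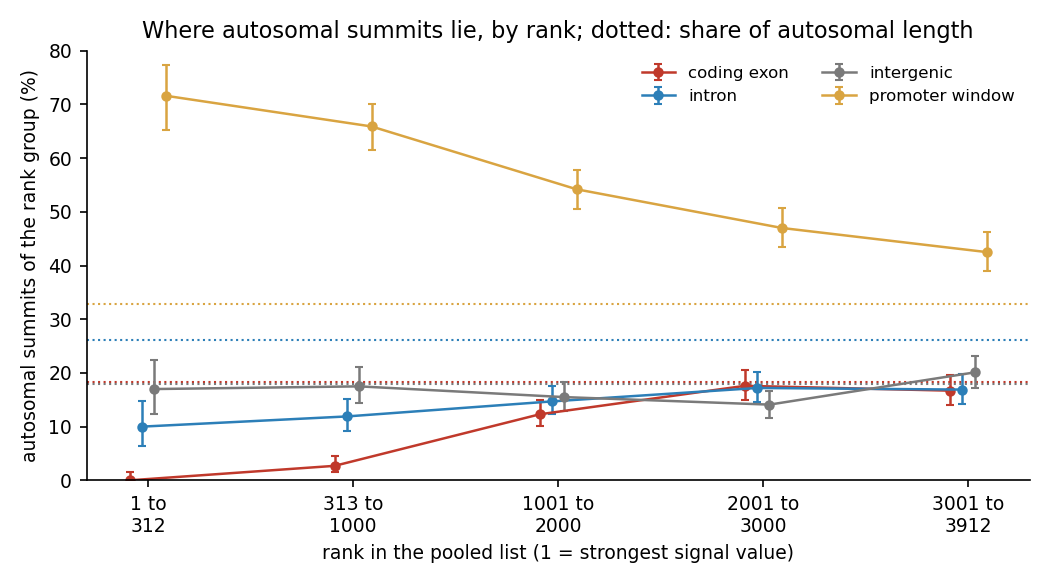
Share of autosomal pooled summits (%) in 4 classes, by rank group of the pooled list. Points are shares, bars are 95% Clopper-Pearson intervals, and dotted lines are each class's share of autosomal length. Coding exon peaks go from 0.0% at ranks 1 to 312 to 17.6% at ranks 2001 to 3000, against 18.3% of length.

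Over the whole list, 12.1% of autosomal summits (11 to 13.3) lay in these exons, a ratio of 0.663 to their share of length (0.6 to 0.73). For introns the ratio was 0.573, for intergenic DNA 0.932 and for promoter windows 1.61. Coding exon peaks were thus less frequent than their length, as intron peaks were. The ratio was below 1 on each autosome: 0.642 on I (92 peaks), 0.597 on II (69 peaks), 0.623 on III (73 peaks), 0.669 on IV (52 peaks) and 0.776 on V (75 peaks). On X, which the rule leaves out, it was 0.598 (85 peaks). Per Mb of coding sequence that meets the rule, chromosomes I and III carried 31.6 and 28.0 peaks and chromosomes IV and V 18.7 and 19.3. The density of all pooled peaks was also higher on I and III (49.2 and 44.9 per Mb) than on IV and V (28.0 and 24.9 per Mb).

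The nearest other pooled summit was a median of 8850 bp away, against 5440 bp for intron peaks, and the nearest final summit a median of 116000 bp away. Just inside and just outside the rule, the 10 members 1001 to 1100 bp upstream of a start had a median signal value of 33.3, and the 9 peaks left out at 901 to 1000 bp had 35.4. The 19 members 201 to 300 bp downstream of a start had a median of 33.0, and the 40 peaks left out at 101 to 200 bp had 33.8.

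The strongest coding exon peak lay in malt-1, which encodes the worm homolog of the mammalian MALT1 protease of immune signalling. It spans chrII:6948087-6948426 in the last of 14 coding exons, 3043 bp from the annotated start, and ranked 354 in the pooled list with a signal value of 55.9. It ranked 686 in replicate 1, 907 in replicate 3 and 2195 in replicate 4, with signal values of 23.8, 14 and 9.90, and it was not in the list of replicate 2. A final peak, ranked 82 with a signal value of 87.2, lay in the promoter window of the same gene, with its summit 3422 bp away.

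The next members by strength had hosts of unlike function. Y73E7A.3, a predicted solute carrier, had the peak ranked 546, which ranked 357 in replicate 1 and 330 in replicate 4 and was in neither other list. The gene zeel-1, the antidote of the peel-1 and zeel-1 toxin and antidote pair, ranked 688, with ranks of 1577, 17789, 9362 and 2103 in replicates 1 to 4. The peak in rer-1, a homolog of the RER1 receptor that returns proteins from the Golgi to the endoplasmic reticulum, ranked 700. It was at ranks 9745, 940 and 1589 in replicates 1, 2 and 3 and was not in the list of replicate 4. No replicate was the weak one for all of these genes.

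C43E11.9, a homolog of the ribosome biogenesis factor NIP7, ranked 750, the homeobox gene ceh-83 ranked 759 and cyc-1, for cytochrome c1 of the respiratory chain, ranked 811. The peak in vps-16, a subunit of the tethering complexes of the endosome and lysosome, ranked 835 and was in the lists of replicates 1 and 2 only, at 527 and 2563. The chemoreceptor gene srw-112 ranked 847 overall but 150 in replicate 1, and in replicate 4 it ranked as low as the pooled list is long. The dauer regulator sdf-9 ranked 863, the predicted kinase H05L14.1 ranked 879, gadr-3 ranked 909, the chromodomain gene cec-1 ranked 945 and the translation initiation factor gene eif-3.C ranked 1007. The peak in ndx-8, for a peroxisomal coenzyme A diphosphatase, ranked 908 and matched 44 other places in the genome over at least 50 bp at 90% identity or more, so its reads may be shared among copies. It ranked 2395, 2423 and 353 in replicates 1, 3 and 4 and was not in the list of replicate 2.

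Replicate 1 held these 15 peaks most often and replicate 2 least. All 15 were in the list of replicate 1, 8 in that of replicate 2, 10 in that of replicate 3 and 11 in that of replicate 4. At ranks no lower than the length of the pooled list there were 13, 4, 6 and 8.

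**Figure D2:**
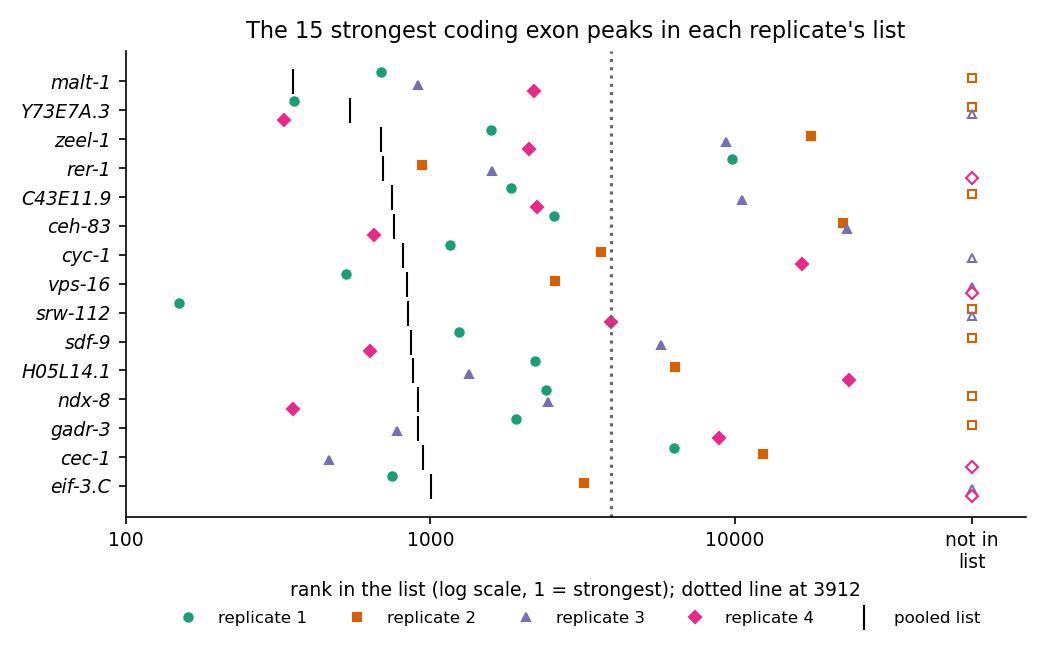
Rank of the 15 strongest coding exon peaks in the pooled list (black bars) and in each replicate's list (coloured symbols), on a log scale. Open symbols at the right are peaks absent from that list, and the dotted line is at the length of the pooled list. Only malt-1 and ndx-8 have 3 replicates left of the line, and none has 4.

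To ask how often the members returned in single libraries, each was looked for in a top list of each replicate, made of as many of its strongest peaks as the pooled list holds, counting at least 1 shared bp. The pooled list was made from the same reads, so this share is not independent of the replicate. In replicate 1, 150 of 361 members were found (41.6%), in replicate 2 there were 64 (17.7%), in replicate 3 there were 55 (15.2%) and in replicate 4 there were 55 (15.2%). Among all pooled peaks, X included, the shares were 49.7%, 28.7%, 35.4% and 28.1%. The coding exon share was below that of all pooled peaks in every replicate, and replicate 1 was above the other three in both. A position anywhere in the coding sequence that meets the rule fell in such a peak, taken at the width of a pooled peak, in 2.0%, 3.01%, 1.47% and 2.14% of cases.

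Intron peaks, the class most like these by place, were found in 43.5%, 24.8%, 30.1% and 28.6%. Coding exon peaks were lower in 4 of 4 replicates, with differences of -1.98, -7.05, -14.9 and -13.3 percentage points (mean -9.31 ± 5.95, SD, n = 4). The two-sided exact sign-flip permutation test gave p = 0.13, the smallest p that 4 replicates allow (2 of 16 sign patterns). The difference was -4.51 points on average in replicates 1 and 2 and -14.1 in replicates 3 and 4. Within the stronger 50% of the pooled list it was -19.2 points (4 of 4 replicates, exact permutation p = 0.13), and within the weaker 50% it was 0.154 points. The stronger 50% mixes ranks, since it holds 23 final intron peaks and coding exon peaks lie mostly lower in it. Within narrower rank groups the direction was mixed. At ranks 313 to 1000, 85.7%, 21.4%, 42.9% and 57.1% of the 14 coding exon peaks and 69.4%, 50%, 53.2% and 43.5% of the 62 intron peaks were found in replicates 1 to 4, so coding exon peaks were higher in replicates 1 and 4. At ranks 1001 to 2000 they were higher in replicate 1 (52.7% against 49.5%) and lower in the others (16.1%, 12.9% and 16.1% against 26.1%, 35.1% and 27.9%). Without the final peaks, which hold introns but no coding exons, it was -6.33 points (exact permutation p = 0.25), with replicate 1 at 0.845. Without replicate 1 it was -11.8 points and without replicate 2 it was -10.1 points.

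**Figure D3:**
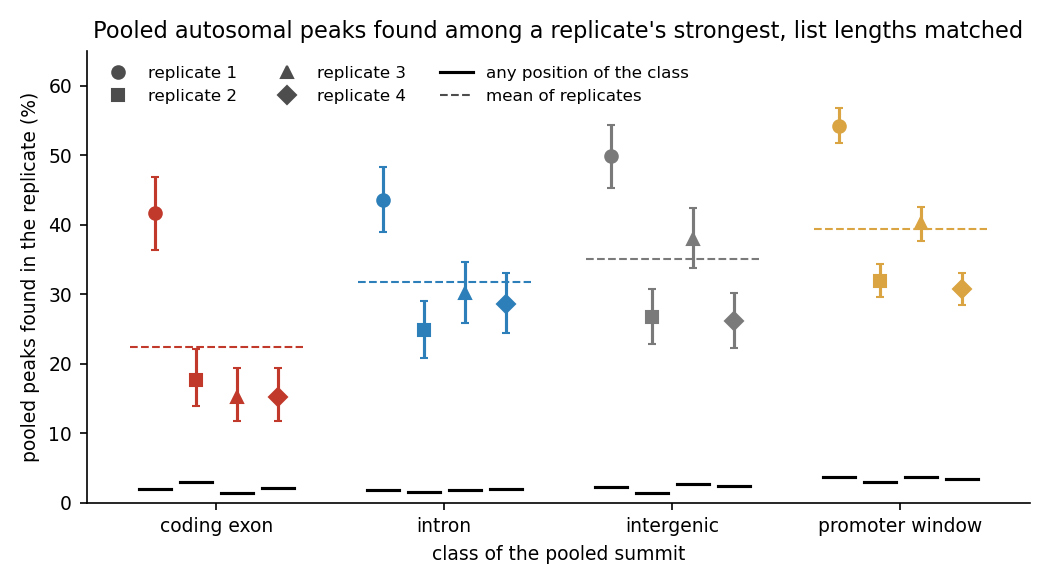
Percent of autosomal pooled peaks of each class found in a replicate's top list, with 95% Clopper-Pearson intervals. Symbols are the 4 replicates, dashed lines their means, and black bars the share of all positions of the class that such peaks reach. Coding exon peaks lie between 15.2 and 41.6%, with replicate 1 far above the rest.

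Most members were found in 1 top list or in none. Of the 361, 100 were found in no replicate's top list, 200 in exactly 1, 59 in 2 and 2 in 3. Those 2 were the peaks in malt-1 and ndx-8. Where a member was found, the replicate's summit lay a median of 24, 55, 32 and 31 bp from the pooled one in replicates 1 to 4. None was found in all 4, which by the limit of 3 counts allows a share of up to 0.831%. At least 2 replicates held 16.9% of the members against 39.4% of all pooled peaks, at least 3 held 0.554% against 15.8%, and 4 held 0.0% against 6.19%. For intron peaks these shares were 33.0%, 11.6% and 5.36%. The intron peaks include 23 final ones, found in replicates 1 to 4 at 95.7%, 91.3%, 91.3% and 69.6%, whereas no member is final. The shares are therefore not matched for strength. Of the 200 members found once, 106 were found in replicate 1, 37 in replicate 2, 28 in replicate 3 and 29 in replicate 4. In the whole lists, background included, every member met at least 1 replicate and 62 members (17.2%) met all 4.

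The replicates were also compared directly, leaving the pooled list aside. The same rule, applied to the top list of each replicate, put 14.9%, 27.4%, 10.1% and 15.2% of autosomal summits in coding exons for replicates 1 to 4 (mean 16.9 ± 7.38%, SD, n = 4). Replicate 2 was above the share of length, 18.3%, and the others were below it. The corresponding intron shares were 16.9%, 15.4%, 18.7% and 19.3%. Without replicate 2 the coding exon mean was 13.4%, and without replicate 1 it was 17.6%. Among the 1000 strongest the coding exon shares were 5.28%, 18.2%, 5.1% and 9.08%. Among the 312 strongest they were 1.75%, 2.8%, 1.28% and 2.9%, so in every replicate they were smallest at the top of the list.

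Coding exon peaks were seldom shared between replicates. Over the 6 pairs, 4.97% of a replicate's coding exon peaks on average met a peak of the other's top list, with pairs from 3.74 to 6.59%. Counted over all positions of the same coding sequence at the same widths, 2.2% meet such a peak. The coding exon share was above this level for each replicate (mean 2.77 ± 1.2 points, SD, n = 4, exact sign-flip permutation p = 0.13). In all tests of sharing, a replicate's value is its mean over the other replicates, so each pair enters the values of both its members. The 4 values are therefore not independent, and these p-values are descriptive only. Intron peaks were shared at 12.1% (positions 1.84%), intergenic peaks at 17.7% (2.23%) and promoter peaks at 23.0% (3.51%). The coding exon share minus the intron share was -8.31, -9.67, -4.41 and -6.02 points for replicates 1 to 4 (mean -7.1 ± 2.34, exact permutation p = 0.13), and its mean was -6.78 without replicate 2 and -6.53 without replicate 1. The classes were not matched for strength within the top lists. Coding exon peaks were on average 16.9% of a top list and 9.41% of the 1000 strongest, and intron peaks 17.6% and 14.1%. Whether strength accounts for the lower sharing was not tested.

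The sharing was also counted among the strongest peaks of each library. At the 1000 strongest, 1.9% of coding exon peaks and 16.5% of intron peaks were shared (mean difference -14.6 ± 2.05 points, 4 of 4 replicates, exact permutation p = 0.13). These peaks are not matched for strength either: at the 312 strongest the mean class shares were 2.19% for coding exons and 10.7% for introns. In replicate 2, the library with most of these peaks, 0 of 135 met replicate 1, 0 met replicate 3 and 1 met replicate 4. Away from the final peaks the difference was -5.24 ± 0.9 points at the 1000 strongest and -4.18 ± 1.65 points in the top lists, negative in 4 of 4 replicates in both. A position in coding sequence met a peak of the 1000 strongest in 0.325% of cases. The 1.9% was raised by replicates 1 and 3, which shared 5.2%, while the other pairs lay between 1.1 and 1.32%. Away from the final peaks 0.841% of coding exon peaks were shared, with pairs from 0.0 to 2.67%. The excess of all coding exon peaks over positions was 2.13, 0.0131, 4.01 and 0.158 points for replicates 1 to 4.

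**Figure D4:**
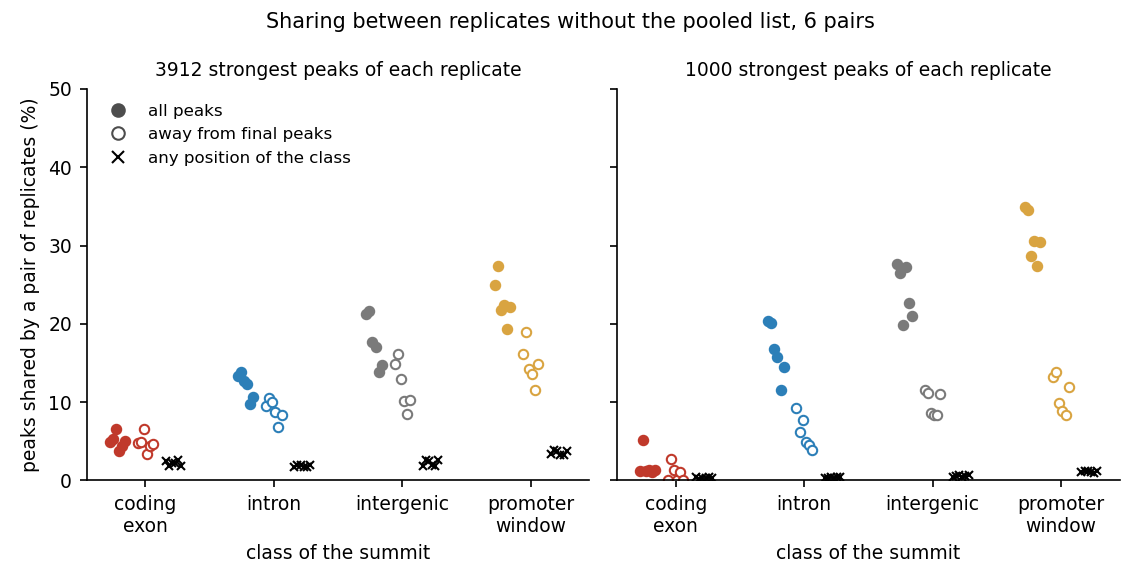
Percent of a replicate's own autosomal peaks that meet a peak of another replicate, for the 6 pairs, in the top lists (left) and among the 1000 strongest (right). Filled circles are all peaks, open circles are peaks away from the final peaks, and crosses are all positions of the class. Coding exon pairs lie at 3.74 to 6.59% on the left, below every intron pair.

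A few coding exon peaks were strong in one library. The 312 strongest peaks of the replicates held 20 of them: 4, 6, 3 and 7 in replicates 1 to 4. Of these, 9 met a pooled peak and 8 met a member. Replicate 1 had srw-112 at rank 150, dhc-1 (the dynein heavy chain) at 230, vab-10 (a spectraplakin that links the cytoskeleton to attachment sites) at 251 and nca-2 (a sodium leak channel) at 309, and all 4 are members. Replicate 4 had another exon of sdf-9 at rank 97, which met no pooled peak. Only 1 of the 20 was also among the 312 strongest of another replicate, the mdt-26 peak of replicate 3 at rank 270, where replicate 1 had a peak at rank 67. That pooled peak, at rank 163, is no member. These genes were chosen after their values were seen.

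The sequence under the members was close in composition to coding sequence at large. GC content within 50 bp of the summit was 40.8%, and it was 37.2% in the flanks, windows of the same width centred 250 bp away, a difference of 3.66 ± 0.383 points (SE over 361 peaks). Every position of the coding sequence that meets the rule gave 41.2%, 37.4% and 3.78 points by the same count. Where the flank centre also lay in coding sequence, the difference was 0.0853 points for 296 members and 0.0513 for all such positions. In the replicates' own coding exon peaks the difference was 3.61, 4.30, 3.40 and 3.95 points (mean 3.81 ± 0.393, SD, n = 4), close to the 3.78 points of all positions. With flanks in coding sequence it was 0.117, 1.14, -0.217 and 0.931 points (mean 0.492 ± 0.646, SD, n = 4, exact sign-flip permutation p = 0.375), above 0 in 3 of 4 replicates.

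The other classes departed from their surroundings. Intron summits were 38.4% GC against 32.8% for all intron positions, intergenic summits 40.7% against 33.8%, and promoter summits 42% against 35.5%. Coding exon summits, at 40.8% against 41.2%, were the only class of these 4 not above its own positions. The replicates' coding exon summits had 40.3%, 43.4%, 38.6% and 40.7% GC, with replicate 2 highest.

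GAGAGA, counted on both strands within 50 bp of the summit, was found at 22 of 361 members, or 6.09% (3.86 to 9.08), and at 5.35% of all positions of the same coding sequence. It was found at 18.3% of intron summits (positions 3.81%), 26.3% of intergenic summits (5.4%) and 19.4% of promoter summits (6.13%). Of the 14 members at ranks 313 to 1000, 0 had it, and 10 of the 120 from rank 3001 on (8.33%) had it. Intron summits went the other way, from 22 of 62 (35.5%) at ranks 313 to 1000 to 18 of 121 (14.9%) from rank 3001 on. At ranks 1001 to 2000 and 2001 to 3000, 4.3% and 5.97% of coding exon summits had it, against 12.6% and 11.5% of intron summits. The gap between the classes was thus widest among the stronger peaks. In the replicates' own peaks, 4.64%, 4.79%, 3.9% and 5.24% of coding exon summits and 10.1%, 14.9%, 12.7% and 10.1% of intron summits had it. The coding exon share was lower in 4 of 4 replicates (mean -7.31 ± 2.55 points, SD). The word was chosen because it is frequent at the strongest peaks of these data. The 312 strongest pooled peaks hold 23 autosomal intron peaks and no autosomal coding exon peak. The choice thus favoured a lower share at coding exons, so these differences are descriptive and no p-value is given.

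The 22 members with GAGAGA had a median signal value of 32.2, against 33.2 for the 339 without it, and 2 of them (9.09%) were found in at least 2 replicates against 59 (17.4%). The strongest was in E04F6.4, at rank 1221. The peak in srw-139, a chemoreceptor gene whose sequence is shown above, was found in replicates 2 and 4, at ranks 354 and 1712. The summit lay 240 bp from the pooled one in replicate 2, away from the word, and 13 bp from it in replicate 4. The peak in lys-2, a lysozyme gene with the word at its summit, was in none of the top lists.

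Other words were near the level of coding sequence or below it. CAGCAG was at 6.93% of members (4.53 to 10.1) and 5.82% of positions, and GGAGGA at 6.37% (4.08 to 9.41) and 6.32%. TTTTTT was at 11.1% of members (8.03 to 14.8) and 15.4% of positions. At intron summits TTTTTT was at 36.2% and at intron positions at 54.2%, so both classes of summit had fewer T runs than their positions. These matches describe letters in a window and were not tested.

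**Figure D5:**
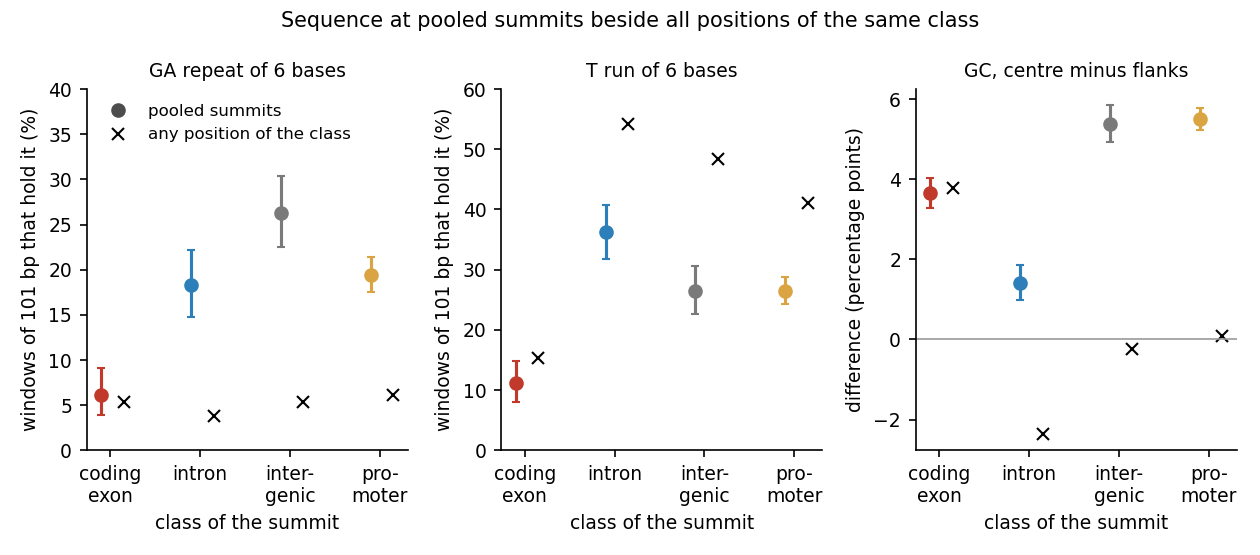
Percent of 101 bp windows at pooled summits (circles, 95% Clopper-Pearson intervals) and at all positions of the class (crosses) that hold a GA repeat or a T run of 6 bases, and GC content at the centre minus the flanks in percentage points (circles, SE over peaks). At coding exons the GA repeat is at 6.09% of summits and 5.35% of positions, and the GC difference is 3.66 and 3.78 points.

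Within genes the members were spread much as coding sequence is. The coding exon under the summit had a median length of 287 bp, against 293 bp over all positions. The summit was in the first coding exon for 12 members (3.32%, positions 3.68%) and in the last for 55 (15.2%, positions 15.4%). With the coding sequence divided into 5 equal parts from 5' to 3', they held 10.2%, 25.2%, 25.5%, 16.1% and 23.0% of members, against 11.7%, 22%, 23.3%, 22.6% and 20.4% of positions. The part with 16.1% had 58 members, with an interval of 12.4 to 20.3% that ends below its share of positions. Peaks are wider than most exons: all members were 340 bp wide, 283 held intron bases, 68 lay wholly in coding sequence and 51 reached into a promoter window.

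Repeated sequence was rare among them. A second copy of at least 50 bp at 90% identity or more was found for 6 members (1.66%), in ndx-8, F53C3.3, Y51A2D.8, tbx-37, ptr-12 and rnh-1.0. The shares were 8.48% for intron, 7.03% for intergenic and 7.22% for promoter peaks.

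The members lay in 351 genes, or 2.29% of the 15334 autosomal protein-coding genes that have coding sequence meeting the rule. The hosts were longer than the average gene: their longest coding sequence had a median of 1749 bp against 1029 bp over all genes. Weighted by the length of coding sequence that could hold a member, the median over all genes was 1650 bp. The number of coding exons was 8 in the median host and 8 in the weighted median gene. GC content at the third codon position had a median of 36.6% in hosts, 39.1% over all genes and 38.0% in the weighted median.

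Only 9 genes held more than 1 member. The Fat-like cadherin gene cdh-4 held 3, at ranks 1266, 1899 and 1976, in 11.6 kb of coding sequence meeting the rule. The middle one was found in replicates 2 and 3, at ranks 3254 and 321, the first in replicate 1 alone and the last in none. Those with 2 were gadr-3, the chitin synthase gene chs-1, the Frizzled receptor gene lin-17, the titin gene ttn-1, the matrix adhesion gene dig-1, F54B3.1, the endosomal gene rme-8 and the obscurin gene unc-89. Of these lin-17 was the smallest, with 1.47 kb, and ttn-1 the largest, with 52.9 kb. The lin-17 peaks ranked 1776 and 3207, and the weaker one was found in replicates 1 and 3, at 2712 and 1790.

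Hosts were counted in 20 gene lists, and their share is read against the 2.29% over all genes. The lists were drawn by gene symbol and do not hold every gene of a kind. Among hosts they leave out the homeobox gene zag-1 (rank 1538), the splicing factor gene syf-1 (2059) and genes of chromatin or transcription such as cec-1, rba-1, cbp-1, let-19 and ctr-9 (ranks 945 to 3593). Muscle structure genes had 4 hosts of 24 (16.7%, 4.74 to 37.4): unc-22 (twitchin), pat-2 (an alpha integrin), ttn-1 and unc-89. These 4 held 6 members in a list with 141.0 kb of coding sequence, or 42.5 per Mb against 23.9 per Mb over all genes. Of the 6, the stronger ttn-1 peak was found in replicates 1 and 2, at 3515 and 841, 2 others were found in 1 replicate and 3 in none. Chemoreceptor genes had 17 hosts of 1303 (1.3%, 0.762 to 2.08), or 19.0 members per Mb. Their strongest were srw-112, srh-222 (rank 1474), str-66 (1668) and srw-35 (1692).

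The lists of housekeeping, germline granule, vitellogenin and collagen genes had 0 to 2 hosts each, too few to place any of them above or below the overall share. Translation factors had 2 of 28 (7.14%, 0.877 to 23.5, 90.6 members per Mb), eif-3.C and ife-5. Splicing factors in the list had 2 of 27 (7.41%, 0.91 to 24.3, 82 per Mb), prp-8 and prp-9. Chaperones had 2 of 45 (4.44%, 0.543 to 15.1, 46.4 per Mb), hsp-90 and dnj-1. Ribosomal protein genes had 0 of 34 (0 to 10.3%), with 7.93 kb of coding sequence meeting the rule, and proteasome genes 0 of 26 with 19.0 kb. The listed glycolysis genes, which do not include the host ipgm-1, had 0 of 15 and the listed germline granule genes 0 of 19. Histone genes had 0 of 3 and the vitellogenin gene 0 of 1. Collagen genes had 1 of 128 (col-115).

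Lists of regulatory genes had intervals that include the overall share. The chromatin and transcription machinery list had 3 of 82 (3.66%, 0.761 to 10.3): pbrm-1, a subunit of a SWI/SNF chromatin remodeller, let-418, an Mi-2 remodeller, and jmjd-1.2, a histone demethylase. Each was found in 1 replicate, pbrm-1 in replicate 3 and the others in replicate 1. Nuclear hormone receptors had 3 of 244 (1.23%, 0.254 to 3.55): nhr-23, a regulator of moulting, nhr-236 and nhr-31. The nhr-23 peak ranked 2007 overall and 316 in replicate 1. The homeobox list had 1 of 58, ceh-83. Genes of the heterochronic pathway, which times larval development and in which SEA-2 is known to act, had 0 of 10, with 17 kb. The F-box and BTB list had 6 of 383, C-type lectins 2 of 230, membrane transport 2 of 43 and cytochrome P450 genes 1 of 67 (cyp-13A7, found in replicates 3 and 4 at ranks 2529 and 1397).

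Some host genes also had a pooled peak in their own promoter window. This was so for 53 of 351 hosts, or 15.1% (11.5 to 19.3), against 8.46% of all 15334 genes, a description with no test. With genes divided into 3 equal groups by coding sequence meeting the rule, the share was 16.4% of 225 hosts and 11.3% of all genes in the top group. It was 14.4% of 97 hosts and 6.71% of all genes in the middle group, and 6.9% of 29 hosts and 7.34% of all genes in the lowest. For 9 hosts (2.56%, against 144 of all 15334 genes or 0.939%) the promoter peak was a final one: pbrm-1 (rank 6, signal value 141.0), the Argonaute gene alg-5 (rank 8, 140.0), R107.5, fic-1, Y39G10AR.11, malt-1, maa-1, T28F4.4 and the CBP/p300 gene cbp-1. The coding exon peaks of the first 2 were at ranks 2327 and 3227. Whether the nearby promoter peak takes part in the exon peak was not tested.

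The tagged gene itself carried no coding exon peak. The sea-2 gene held 8 pooled peaks, 5 in introns and 3 in promoter windows, the strongest at ranks 29 and 36 with signal values of 111.0 and 104.0. It has 3479 bp of coding sequence meeting the rule. The gene unc-119, also on the transgene, held 1 pooled peak, in a promoter window at rank 3576, and none in coding exons. For both genes, DNA of the transgene and of the native gene cannot be told apart in these lists.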

How the data were processed

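ChIP-seq peak lists of 4 biological replicates were used as the authors deposited them on ce11. Per the deposited file records, the replicate lists and the pooled list were called against 1 shared control file, and the final list was kept from the pooled one by a threshold on the irreproducible discovery rate. The aligner, the peak caller, the threshold and the read depth were not given in the sources used here. The signal value and the −log10 of the q-value per peak are the authors' own, deposited values and served only for ranks and descriptions inside each list. Lists on ce10 were not used here.

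Summits were classed with Ensembl release 115 gene models on WBcel235, with promoter windows taking precedence over 5' UTRs, these over coding exons, and these over 3' UTRs, other exons, introns and intergenic DNA. Gene symbols came from the Ensembl gene models, and sequences and product names from RefSeq. A peak counted as found where at least 1 bp overlapped the replicate's top list, its strongest peaks in the number of the pooled list. Levels beside each share were counted over every autosomal position of the class. GC content and 6-base words were read within 50 bp of the summit, with flanks centred 250 bp away. Second copies were searched with blastn 2.17.0. Replicates were the units of the exact two-sided sign-flip permutation test, whose smallest p is 0.13. For sharing between replicates these units are not independent, since each pair enters the values of both its replicates. The 95% Clopper-Pearson intervals of shares hold counting error alone. The steps were tested on simulated data (Python 3.11.15, pandas 2.3.3, scipy 1.17.1). Alternatives covered the promoter window, list length, the overlap needed, strength, second copies, flanks and leaving out each replicate.

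Genes named were the hosts of the 15 strongest members, up to 10 genes with 2 or more members, up to 4 members per gene list, sea-2 and unc-119. Members with GAGAGA at the summit, hosts with a final promoter peak and strong coding exon peaks of single replicates were named after their values were seen. The members and the lists were chosen with earlier results of these data known.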

Additional observations from a re-analysis of the deposited data

Results flagged for a closer look

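Replicate 1 stood far from the other replicates in how many of the 361 members it held. The coding exon share of its own top list, 14.9%, was not flagged. In its top list, as long as the pooled one, 41.6% of the 361 members were found, and in its whole list 87.3% were found, each far enough from the nearest other replicate, relative to the range, to pass the 95% critical value of Dixon's test for 4 values. The shares of the other replicates were 17.7, 15.2 and 15.2% for the first measure and 62.0, 62.9 and 64.8% for the second. Dixon's test was applied to 12 sets of 4 replicate values, of which 2 passed, and chance passes about 1 in 20. Replicate 1 has the shortest list, with 23684 peaks, and it also held the highest share of all pooled peaks in its top list, 49.7%.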

How the results depend on the processing

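The difference between coding exon and intron peaks in the share found per replicate was -9.31 percentage points and turned to 0.154 within the weaker 50% of the pooled list; the cause was not tested. It lay between -11.8 and -7.45 when each replicate was left out in turn. The ratio of summits to length was 0.663, and 0.379 within the stronger 50% of the pooled list. The GC difference of 3.66 points was 2.74 with 100 bp to each side, 4.52 with flanks 500 bp away and 0.0853 with flanks in coding sequence; over the replicates' own peaks it ran from 3.65 to 3.95 without one of them. The share of hosts with a promoter peak was 11.1% with a window from 500 bp upstream to 100 bp downstream. The mean coding exon share of a replicate's own list was 9.41% at the 1000 strongest, and 13.4 to 19.2% without one replicate. Replicate sharing, coding exon minus intron, ran from -8.48 to -6.53 points without one replicate. Of 43 alternatives, 36 stayed on the same side and within the limits set for a change. Those without final peaks, without second copies for the found share, with starts of protein-coding genes only for the ratio, and all on sharing between replicates, were chosen after seeing the data. No paired analysis was possible because there is only 1 group. Unknown read depth limits every comparison of list contents between replicates.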
